A study of Homo sapiens with 88 samples.

Results

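Interferon-stimulated genes are the genes that a cell switches on when an interferon binds its receptor. A list of 41 such genes was followed across small cell lung cancer (SCLC) lines given the vehicle DMSO or the treatment that the sample titles call 552A. Each was read from probe sets annotated to that gene alone, which gave 67 probe sets for 40 of the 41 genes, and the other gene is not analysed here. These 40 members stood among 19775 genes with such a probe set, and each gene was represented by 1 probe set, the brightest over all arrays after those that can bind several transcripts (names ending in _x_at) had been set aside where possible.

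The data were 88 Affymetrix HG-U133 Plus 2.0 arrays of total RNA from 9 established human SCLC lines, grown in RPMI medium with serum over several passages. Both treatments were sampled on days 2, 4 and 7 in COLO668, SHP-77, NCI-H146, NCI-H510, NCI-H446 and NCI-H526, and on day 4 alone in H1417, H2171 and H69. This made 42 groups of line, treatment and day, of which 39 held 2 arrays, 2 held 3 and 1 held 4, and whether the arrays within a group are separate cultures is not labelled, so that p-values within a line rest on a spread that may be technical. The protocol names GSK2879552 at 1 µM, which blocks LSD1, a demethylase of histones encoded by KDM1A, without stating that 552A is that compound, and the series asks how blocking LSD1 alters transcription in lines whose growth it does or does not inhibit; which line is which is not given in the sources used here.

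Values are log2 signals of a probe set. The array medians lay between 7.36 and 7.46, and a signal below 6.09, the median of the arrays' lower quartiles, is called dim here, since a change of a dim probe set may be understated. The neuroendocrine markers CHGA, INSM1 and NCAM1 had DMSO means of at least 10.74 in all 9 lines and SYP means from 7.66 to 8.09. Of the markers of other cells, 7 of 8 immune, 3 of 5 fibroblast and 2 of 5 endothelial genes stayed below the median of all values, 7.41, in all 9, while COL1A2 reached 12.003 in H69 and CDH5 10.91 in NCI-H446; their part in the results was not tested. POU2F3, a tuft cell factor, was at 12.48 in NCI-H526 and at most 4.79 elsewhere. KDM1A ranged from 11.25 to 12.75 over the arrays and was called under 552A in 0 of 9 lines (changes from -0.06 to 0.13; smallest adjusted p = 0.0812, limma). Of the arrays, 5 of day 7 had a 3′ minus 5′ signal of ACTB, a sign of RNA integrity, more than 0.8 above the median of all arrays: SHP-77 DMSO replicate 1, SHP-77 552A replicates 1 and 2, COLO668 DMSO replicate 1 and COLO668 552A replicate 2. NCI-H446 DMSO day 4 replicate 2 had the narrowest distribution of all arrays. Counts under 552A are given with these 6 arrays and, for the 3 lines that hold them, also without. Left out are counts of a single day on which only 1 array of an arm would remain.

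Type I interferons bind the receptor made of IFNAR1 and IFNAR2, whose kinases JAK1 and TYK2 phosphorylate STAT proteins. These join IRF9 in a complex that binds the interferon-stimulated response element in promoters, while interferon gamma, through IFNGR1 and IFNGR2, acts on a different element, GAS. The products block viral entry, copying and translation, and some of them, such as USP18, shut the receptor down again. Tumour cells can keep part of this program on without added interferon.

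Most of the member promoters that could be read held the core of the interferon-stimulated response element. RefSeq start sites (GRCh38.p14) were given for 31 of the 40 members. In the 250 bases before the start, 23 of these 31 (74.2%) held GAAANNGAAA or its reverse complement TTTCNNTTTC, the core of the interferon-stimulated response element, against 3.71% of 27305 gene symbols; 13 members held at least 2 matches, and matches may overlap. The GAS letters TTCNNNGAA, which read the same on both strands, were in 11 members (35.5%) against 8.09% of all symbols. The 160 bases up to the start site are printed below for some members that hold a match and whose change under 552A is described further on. They run 5′ to 3′ on the strand of the gene, with matches to the response element in capitals. HERC5 lies on the plus strand at chr4:88456959-88457118, PARP14 on the plus strand at chr3:122680679-122680838, DDX60 on the minus strand at chr4:168318753-168318912, IFI6 on the minus strand at chr1:27672193-27672352 and IFITM3 on the minus strand at chr11:320861-321020.
HERC5: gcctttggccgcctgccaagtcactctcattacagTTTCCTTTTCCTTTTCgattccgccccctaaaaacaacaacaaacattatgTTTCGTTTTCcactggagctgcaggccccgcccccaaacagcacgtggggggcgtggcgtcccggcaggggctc
PARP14: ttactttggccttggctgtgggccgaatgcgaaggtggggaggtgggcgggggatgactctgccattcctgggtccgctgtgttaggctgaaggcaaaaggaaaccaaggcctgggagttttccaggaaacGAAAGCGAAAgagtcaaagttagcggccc
DDX60: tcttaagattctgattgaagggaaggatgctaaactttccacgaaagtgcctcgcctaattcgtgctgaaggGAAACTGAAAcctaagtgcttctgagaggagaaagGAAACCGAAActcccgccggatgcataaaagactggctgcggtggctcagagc
IFI6: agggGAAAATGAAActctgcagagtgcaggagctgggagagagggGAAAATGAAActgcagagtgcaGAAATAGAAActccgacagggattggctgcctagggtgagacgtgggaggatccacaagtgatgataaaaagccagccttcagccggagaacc
IFITM3: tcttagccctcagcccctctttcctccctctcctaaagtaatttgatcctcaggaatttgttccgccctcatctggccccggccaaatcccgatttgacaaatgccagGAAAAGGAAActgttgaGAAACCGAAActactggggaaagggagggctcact
HERC5 held 3 matches, of which 2 overlapped, and the most distant began 125 bases before the start. IFI6 also held 3, DDX60 and IFITM3 held 2 each, and PARP14 held 1, which began 29 bases before the start. A match describes letters in this window and is no measure of binding. Of the 23 members with the element 14 were called higher under 552A in at least 1 line. Of the 8 without it 4 were: OAS1, CMPK2, IRF1 and IRF9. The shares of all tested genes were 29.5% of 522 with the element and 23.4% of 14862 without, and 23.3% of all 19775.

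The first comparison asked how much of the program each line carried without the drug. The members did not form 1 block that was high or low together: different members stood out in different lines. At day 4 under DMSO the means of the 9 lines differed for 36 of the 40 members (moderated F test in limma, adjusted p below 0.05), where 87.5% of all genes did. The distance from the lowest to the highest line exceeded 2 log2 units for 20 members and was under 1 for 13. On the probe set used, TRIM22 and GBP1 were dim in all 18 means of line and treatment (a different GBP1 probe set read 7.18 in H69), and 13 members lay below the median of all values in all 18, among them IFIT1, OAS2, RSAD2, IFI44 and IFI44L, which are often used as interferon reporters.

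**Figure D1:**
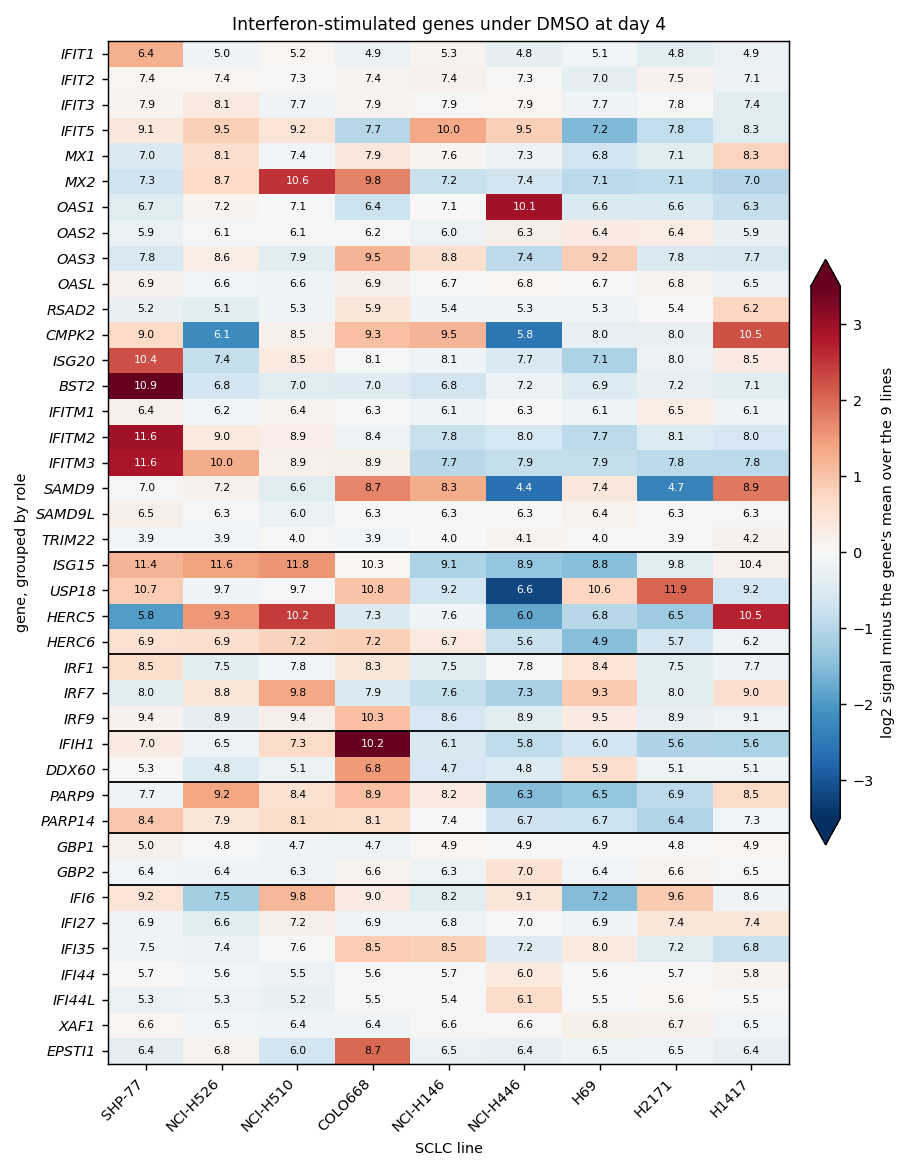
DMSO level at day 4 of the 40 members (rows, grouped by role) in 9 SCLC lines (columns). Printed numbers are the mean log2 signal of a line, and the colour is that mean minus the member's mean over lines; BST2, OAS1, IFIH1 and EPSTI1 each stand out in a single line, while IFIT2, OASL, GBP1 and XAF1 vary little.

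The member with the largest range was USP18, the protease that strips ISG15 from proteins and blocks the type I receptor. Its DMSO arrays of day 4 read 11.80 and 11.92 in H2171, and 6.38 to 6.98 over the 3 arrays of NCI-H446. The arrays of the other 7 lines lay between 9.11 and 10.84, so that H2171 was above and NCI-H446 below every other line without overlap. H2171 exceeded the mean of the other lines by 2.30 ± 0.12 (SE; adjusted p = 4.29e-24) and NCI-H446 was below it by a difference of -3.58 ± 0.10 (adjusted p = 8.33e-37).

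CMPK2, a mitochondrial nucleotide kinase that is induced with RSAD2 from the neighbouring gene, had a mean of 10.52 in H1417 and 5.76 in NCI-H446. NCI-H146, with arrays at 9.39 and 9.55, and COLO668, with arrays at 9.34 and 9.35, came next and lay close together. NCI-H526 was also dim for CMPK2, with a mean of 6.07. RSAD2 itself, the antiviral enzyme viperin, was dim in 8 of 9 lines, and its highest line was also H1417, at 6.21.

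HERC5, the ligase that attaches ISG15 to newly made proteins, fell into a high and a low set of lines. Its means were 10.46 in H1417, 10.21 in NCI-H510 and 9.27 in NCI-H526, and between 5.81 in SHP-77 and 7.63 in NCI-H146 in the other 6. ISG15, the ubiquitin-like protein that HERC5 attaches, was high in a different set: 11.78 in NCI-H510, 11.64 in NCI-H526 and 11.43 in SHP-77, against 8.76 in H69. SHP-77 therefore joined a high ISG15 signal to the lowest HERC5 signal of the 9 lines.

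IFIH1, the RNA sensor MDA5, was high in COLO668 alone, with arrays at 10.18 and 10.20, where the highest array of any other line was 7.53. COLO668 exceeded the others by 3.96 ± 0.14 (adjusted p = 2.01e-31). EPSTI1, an induced gene of epithelial and immune cells, showed the same line, at 8.73 in COLO668 and at most 6.83 in the rest.

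SAMD9, an antiviral factor that halts translation, had means of 8.86 in H1417, 8.71 in COLO668 and 8.29 in NCI-H146. It was dim in H2171 (4.66) and NCI-H446 (4.39). Its close relative SAMD9L varied by only 0.45 over the lines and stayed below 7.41 throughout. BST2, the surface protein tetherin that holds budding virus on the cell, read 10.95 on both day 4 DMSO arrays of SHP-77. In every other line its mean lay between 6.77 and 7.24, and SHP-77 exceeded the others by 3.96 ± 0.10 (adjusted p = 5.35e-38).

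Outside the 6 members with the largest range, IFITM2 and IFITM3, membrane proteins that stop viral fusion, were likewise highest in SHP-77, at 11.59 and 11.55. OAS1, which makes the messenger that activates an RNA-degrading enzyme, was at 10.06 in NCI-H446 and at most 7.21 elsewhere. MX2, a GTPase that acts at the nuclear pore, was at 10.56 in NCI-H510 and 9.80 in COLO668, while its paralog MX1 differed by only 1.44 over all lines. These genes were named after their values were seen. In such bulk RNA a lower signal cannot tell fewer expressing cells from less RNA per cell.

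By line, COLO668 had 18 members above the mean of the other lines and 5 below (of all 19775 genes, 4601 above and 5689 below, 52.0% called). SHP-77 had 15 above and 8 below (all genes 5198 and 4906, 51.1%), NCI-H510 13 and 6 (4988 and 5658, 53.8%) and NCI-H526 12 and 9 (4622 and 5508, 51.2%). H1417 had 10 above and 14 below (5582 and 6177, 59.5%), H69 9 and 17 (5350 and 5936, 57.1%) and NCI-H146 6 and 15 (4696 and 4935, 48.7%). NCI-H446 had 6 above and 22 below (5899 and 6289, 61.6%) and H2171 4 and 21 (5973 and 4610, 53.5%). The NCI-H446 level includes its doubted DMSO array of day 4. Leaving out any single array of the series gave 26 to 29 called members in that line. The shares of members called were thus near those of all genes, and the direction varied by line. Against the other lines the median member was at 0.125 in COLO668 (all genes -0.009) and 0.105 in SHP-77 (0.002). It was at -0.014 in NCI-H510 (-0.06), -0.085 in NCI-H526 (-0.037) and -0.097 in NCI-H146 (-0.046). In H69 it was at -0.151 (-0.047), in H1417 at -0.171 (-0.04), in NCI-H446 at -0.277 (0.025) and in H2171 at -0.307 (0.06).

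The second comparison asked how the members responded to 552A. HERC5, PARP14, IFITM2, IFITM3, IFIT1, OAS1 and DDX60 rose in 3 or 4 lines each, USP18 fell in 2, and 17 of the 40 members passed in no line. The other 23 were called in at least 1, where 38.5% of all genes were. The share of all genes that rose in 3 or more lines was not counted, so the list of such members is a description only. Averaged over the days of a line, 14 members were called in NCI-H526 (12 higher and 2 lower; all genes 15.8%) and 12 in COLO668 (11 and 1; 15.9%). In NCI-H510 7 were called (6 and 1; 11.3%), in NCI-H146 6, all higher (4.88%), and in SHP-77 4, all higher (5.84%). NCI-H446 had 2, both higher (4.07%), and H1417 had 2, both higher (6.98%). In H69 and H2171 limma called 0 members (3.2% and 1.44% of all genes). An unadjusted p below 0.05 was held by 6 and 3 members there (10.8% and 7.96% of all genes). Over the 360 pairs of member and line this made 43 called higher and 4 lower. All genes were split more evenly, with 8.1% called higher and 7.73% lower in NCI-H526, 9.12% and 6.76% in COLO668, 6.53% and 4.8% in NCI-H510, and 3.01% and 2.83% in SHP-77. The shares were 3.23% and 1.65% in NCI-H146, 3.13% and 0.941% in NCI-H446, 4.12% and 2.86% in H1417, 1.91% and 1.29% in H69, and 1.02% and 0.415% in H2171. The median member changed by 0.08 in SHP-77, 0.07 in NCI-H510, 0.05 in NCI-H146 and 0.04 in NCI-H526, where the median of all genes lay between -0.02 and 0.01. The change was above 0, called or not, for 33 members in SHP-77 (54.5% of all genes), 30 in NCI-H510 (44.5%) and 25 in NCI-H146 (54.1%). It was above 0 for 25 in NCI-H526 (43.2%), 25 in COLO668 (38.6%), 22 in H1417 (50.4%) and 20 in H69 (51.5%). In H2171 it was above 0 for 19 (44.4%) and in NCI-H446 for 17 (52.5%). The median member changed by 0.014 in COLO668, 0.033 in H1417, -0.001 in H69, -0.016 in H2171 and -0.014 in NCI-H446. The medians of all genes there were -0.037, 0.002, 0.005, -0.018 and 0.006 in that order. By day, SHP-77 had 26 members above 0 at day 2, 19 at day 4 and 36 at day 7. Day 7 holds the doubted arrays of SHP-77.

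**Figure D2:**
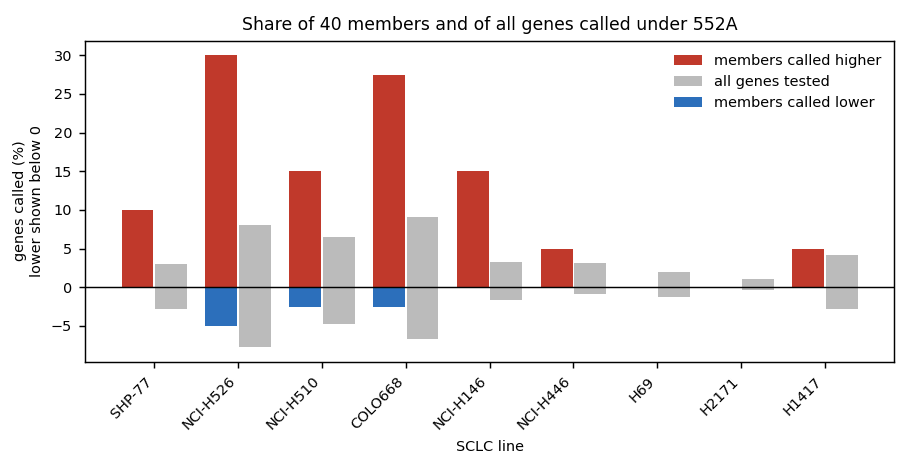
Share of the 40 members (red, called higher; blue, called lower, drawn below 0) and of all 19775 genes (grey, same directions) called in each line under 552A. The red bars exceed the grey bars above 0 in 7 lines, with the widest gap in NCI-H526 (12 members higher; 8.1% of all genes higher) and COLO668 (11 members; 9.12%), and H69 and H2171 have no coloured bar.

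Without the 6 doubted arrays 12 members were called in COLO668 (all genes 21.5%), where OAS1 was lost and IFI6 gained, 3 in SHP-77 (6.42%), where ISG20 was lost, and 3 in NCI-H446 (5.06%), where IFI44 was gained. Of these 3 lines, COLO668 and SHP-77 then kept a single DMSO array at day 7, and COLO668 also a single treated array. The spread of those groups thus rested on other groups. The other lines hold none of the doubted arrays but share the pooled spread, and more of all genes were called there too. There the counts were 15 in NCI-H526 (23.9%), 9 in NCI-H510 (17.0%), 7 in NCI-H146 (8.32%), 3 in H69 (5.21%), 4 in H1417 (11.5%) and 0 in H2171 (2.95%). Leaving out any single array of H1417 left 0 or 1 of its 2 calls.

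**Figure D3:**
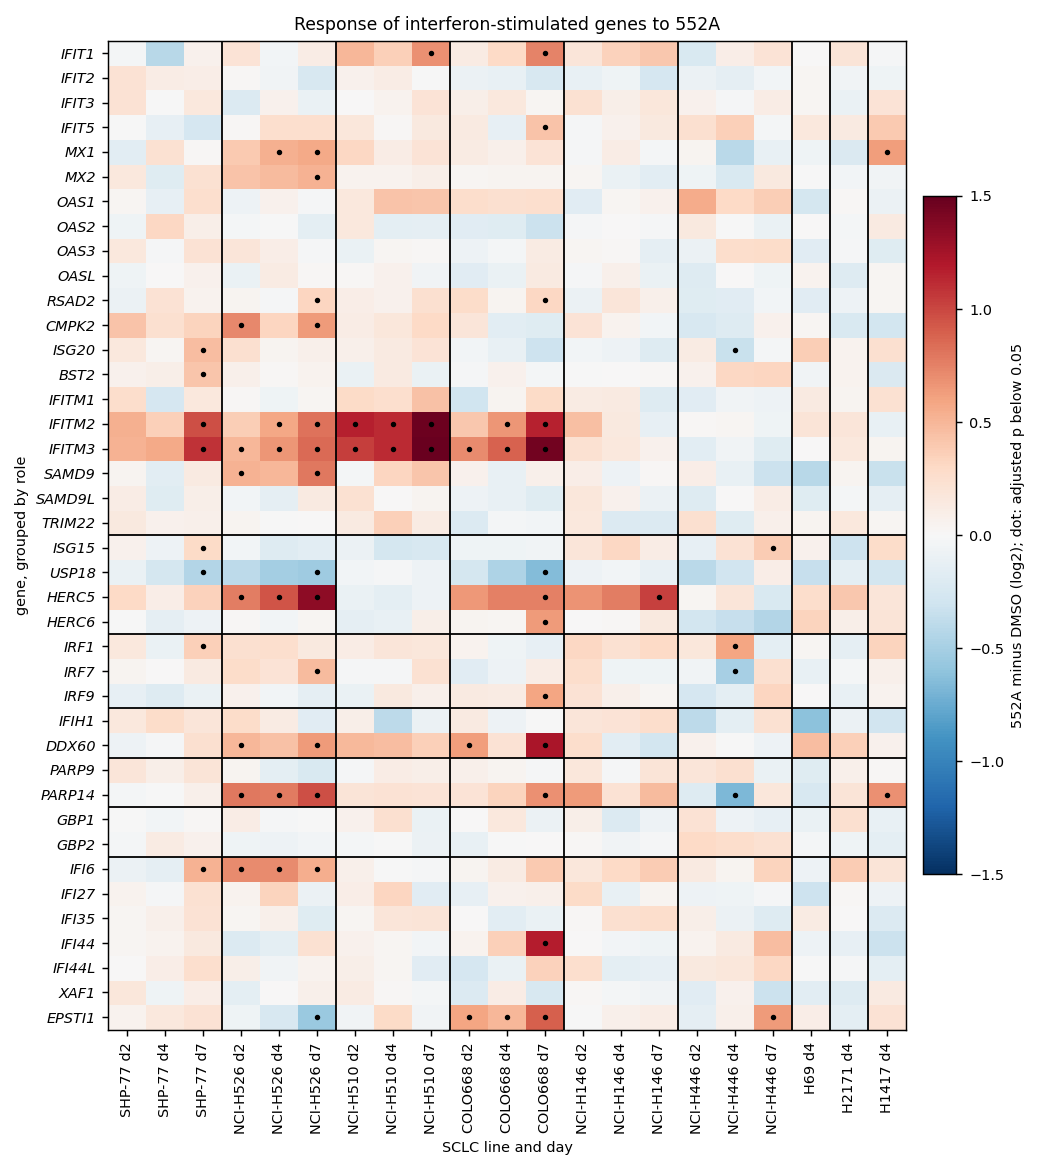
552A minus DMSO (log2, colour) for the 40 members (rows, grouped by role) in each line and day (columns, d for day); a dot marks an adjusted p below 0.05. Of the 70 dots, 10 are on IFITM3, 8 on IFITM2, 6 on PARP14 and 5 each on HERC5 and EPSTI1, and USP18 is below 0 in 20 of 21 columns.

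Among the antiviral effectors the IFITM genes gave the largest changes. IFITM3 in NCI-H510 ranged from 8.77 to 9.18 (median 8.89) over 6 DMSO arrays and from 9.89 to 10.46 (median 10.09) over 6 arrays with 552A. No treated array reached down to a DMSO array, and IFITM3 was 2.33-fold higher (log2 change 1.22 ± 0.09 SE, adjusted p = 1.26e-16). IFITM2 in the same line went from 8.67 to 9.11 (median 8.82) under DMSO to 9.90 to 10.29 (median 10.10) under 552A, again with no overlap, and was 2.38-fold higher (1.25 ± 0.09, adjusted p = 9.50e-17).

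COLO668 gave the next largest change of IFITM3. DMSO arrays lay between 8.90 and 9.92 (median 9.20) and treated arrays between 9.77 and 11.44 (median 9.92), a change of 1.01 ± 0.09 (adjusted p = 1.32e-13). The arms overlapped because the day 7 DMSO arrays were higher than the day 2 and day 4 arrays, and on each single day the treated arrays were above the DMSO arrays. IFITM2 rose there by 0.74 ± 0.09 (adjusted p = 4.35e-09).

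In SHP-77, where both genes were brightest to begin with, IFITM3 lay between 11.20 and 11.63 (median 11.46) under DMSO and between 11.88 and 12.57 (median 12.31) on 8 arrays with 552A. The arms did not overlap, and the gene rose by 0.72 ± 0.09 (adjusted p = 9.39e-09). Without the doubted arrays the change was 0.66. In NCI-H526 IFITM3 lay between 9.82 and 10.19 (median 10.01) under DMSO and between 10.50 and 11.01 (median 10.58) under 552A, without overlap, and rose by 0.67 ± 0.09 (adjusted p = 1.12e-08).

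The 5 other lines had DMSO means of IFITM3 of at most 7.87 at day 4, and their changes lay between -0.13 and 0.16, none of them called. The lines in which IFITM3 rose were thus the 4 with the highest DMSO level, a description over 9 lines. Both genes were read from _x_at probe sets, whose probes can bind each other's transcript, so IFITM2 and IFITM3 may report in part the same RNA. IFITM1, read from a different type of probe set, stayed between 5.91 and 7.19 on all arrays and was called in NCI-H510, where it rose by 0.32 ± 0.09 (adjusted p = 0.0120). A difference of its response between the time course lines did not pass the test (F test, adjusted p = 0.120).

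The other effectors moved in fewer lines. In NCI-H526 the GTPases MX1 and MX2 rose by 0.50 ± 0.09 and 0.48 ± 0.10, SAMD9 by 0.60 ± 0.10 and CMPK2 by 0.56 ± 0.11. MX1 lay between 7.87 and 8.30 under DMSO and between 8.33 and 8.75 under 552A in that line, and neither MX gene nor SAMD9 overlapped between arms. MX1 also rose in H1417, where its DMSO arrays read 8.19 and 8.37 and its treated arrays 8.82 and 8.998, a change of 0.63 ± 0.16 (adjusted p = 0.00571) that was lost without either of 2 arrays (0.54 each; adjusted p = 0.111 without 552A replicate 1 and 0.120 without DMSO replicate 2).

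IFIT1, which binds foreign RNA ends, rose from a dim level in NCI-H510 (0.52 ± 0.10), COLO668 (0.39 ± 0.10) and NCI-H146 (0.31 ± 0.10), while IFIT2, IFIT3 and IFIT5, its neighbours on chromosome 10, were called in 0 lines. A second, dimmer probe set of IFIT3 did rise in those 3 lines, by 0.78, 0.68 and 0.65 (adjusted p from 9.75e-06 to 6.55e-04 over all probe sets), so that the contrast within the family depends on the probe set. OAS1 rose in NCI-H446, the line where it was bright. Its 7 DMSO arrays ranged from 9.69 to 10.38 (median 10.12) and its 6 treated arrays from 10.06 to 10.89 (median 10.46), so the arms overlapped, with a change of 0.41 ± 0.08 (adjusted p = 4.81e-04). OAS1 also rose by 0.33 in NCI-H510 and by 0.25 in COLO668 (0.20, adjusted p = 0.104, without the doubted arrays), and OAS2, OAS3 and OASL passed nowhere. CMPK2 (0.33) and the nuclease ISG20 (0.21) rose in SHP-77, and without the doubted arrays ISG20 was no longer called there (0.13; adjusted p = 0.222).

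In the ISG15 system, HERC5 gave the largest rise of any member in NCI-H526 and NCI-H146. In NCI-H526 it ranged from 8.92 to 9.50 (median 9.27) over 6 DMSO arrays and from 9.64 to 10.58 (median 10.23) over 7 arrays with 552A. The arms did not overlap, and HERC5 was 2.02-fold higher (1.02 ± 0.13, adjusted p = 1.37e-08). In NCI-H146 the 6 DMSO arrays lay between 7.32 and 7.71 (median 7.53) and the 6 treated arrays between 7.72 and 8.65 (median 8.40), a gap without overlap and a change of 0.82 ± 0.14 (adjusted p = 1.37e-05).

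COLO668 was the third line in which HERC5 rose, from 7.13 to 7.80 (median 7.38) to 8.02 to 8.19 (median 8.09), with no overlap and a change of 0.72 ± 0.14 (adjusted p = 4.82e-05). In NCI-H510 and H1417, which had the highest DMSO levels, HERC5 changed by -0.11 and 0.19 and did not pass. In H2171 its treated arrays, 6.90 and 6.89, were above its DMSO arrays, 6.50 and 6.48, a change of 0.40 ± 0.24 that did not pass (adjusted p = 0.762). HERC6, the neighbouring ligase gene, was called in 0 of 9 lines.

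**Figure D4:**
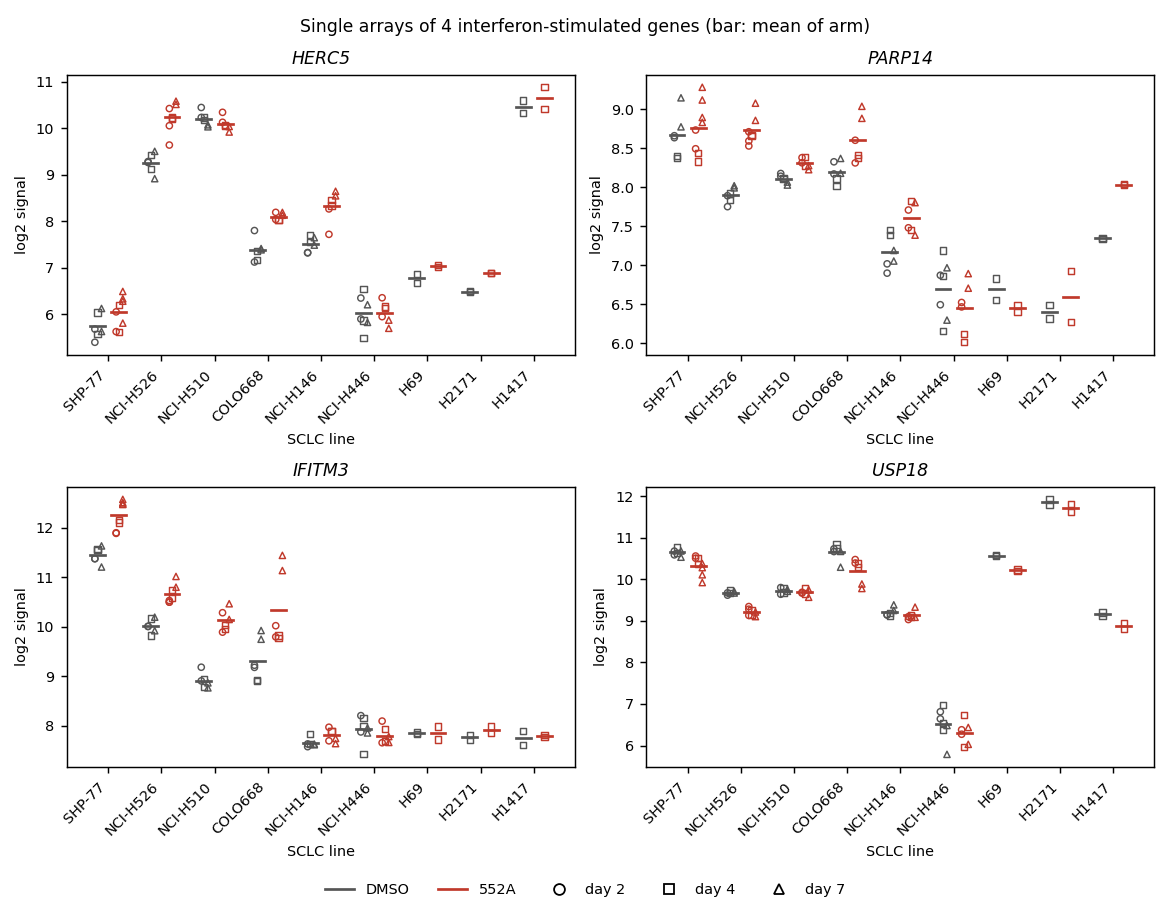
Log2 signal on every array (points; shape gives the day) of HERC5, PARP14, IFITM3 and USP18 under DMSO (grey) and 552A (red) in 9 lines; bars are the mean over an arm's arrays. HERC5 separates by arm in NCI-H526, COLO668 and NCI-H146, IFITM3 in NCI-H510, SHP-77 and NCI-H526, and the red bar of USP18 is below the grey bar in all 9 lines.

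USP18 moved the other way. In NCI-H526 its DMSO arrays lay between 9.62 and 9.73 (median 9.67) and its treated arrays between 9.10 and 9.34 (median 9.21). The arms did not overlap and USP18 fell by 0.48 ± 0.09 (adjusted p = 4.26e-05). In COLO668 it fell by 0.46 ± 0.09 (adjusted p = 1.43e-04), from a range of 10.29 to 10.84 (median 10.70) to 9.78 to 10.47 (median 10.33), with overlap. Its day-averaged change was below 0 in all 9 lines, between -0.48 and -0.05, and was not called in the other 7; in SHP-77 it was -0.27 ± 0.09 (adjusted p = 0.0597).

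ISG15 itself changed little and in opposite directions. It fell by 0.20 ± 0.06 in NCI-H510 (adjusted p = 0.0203), where DMSO arrays lay between 11.56 and 11.78 (median 11.73) and treated arrays between 11.35 and 11.63 (median 11.52), with overlap. It rose by 0.20 ± 0.06 in NCI-H146 (adjusted p = 0.0340). The fall in NCI-H510 was no longer called after leaving out any of 4 single arrays (adjusted p from 0.0660 to 0.108): DMSO day 2 replicate 2, 552A day 2 replicate 2, DMSO day 7 replicate 2 and 552A day 7 replicate 1.

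The ADP-ribosyltransferases are encoded side by side on chromosome 3, and their values went apart. PARP14, which also acts in interleukin signalling, rose in 4 lines. In NCI-H526 its DMSO arrays ranged from 7.75 to 8.02 (median 7.90) and its treated arrays from 8.53 to 9.08 (median 8.67). No arrays overlapped, and it was 1.80-fold higher (0.85 ± 0.11, adjusted p = 3.81e-09). In H1417 it read 7.35 and 7.34 under DMSO and 8.04 and 8.03 under 552A, a change of 0.69 ± 0.19 (adjusted p = 0.0113). The 2 arrays of each H1417 arm lay closer together than the pooled spread assumes. The call was lost without any 1 of the 4 arrays (adjusted p from 0.0574 to 0.0806).

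PARP14 further rose in NCI-H146 (0.44 ± 0.11, adjusted p = 0.00468) and COLO668 (0.41 ± 0.11, adjusted p = 0.00440). Without NCI-H146 552A day 7 replicate 2 the former was 0.37 with an adjusted p of 0.0503. A second probe set of PARP14, dim in all lines with DMSO means between 5.21 and 5.61, was called in none of them, and the mean over both gave 0.32 in H1417 (adjusted p = 0.135). PARP9, the partner of PARP14, changed by between -0.18 and 0.16 and was called in 0 lines.

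Of the transcription factors, IRF1, which drives the interferon gamma branch, rose in NCI-H146 (0.28 ± 0.08, adjusted p = 0.0198), where 7.40 to 7.54 under DMSO became 7.65 to 7.86 without overlap, and in NCI-H526 (0.21 ± 0.08, adjusted p = 0.0433). IRF7, the master factor of interferon alpha genes, rose in NCI-H526 (0.32 ± 0.09, adjusted p = 0.00439). IRF9, the DNA-binding part of the STAT complex, rose in COLO668 (0.28 ± 0.07, adjusted p = 0.00317).

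Among the RNA sensing members DDX60, a helicase that assists the sensors, rose in COLO668 (0.69 ± 0.09), NCI-H526 (0.52 ± 0.09) and NCI-H510 (0.44 ± 0.09), and in the latter 2 it was dim in both arms. The largest adjusted p of the 3 was 3.91e-04. IFIH1 was called in 0 lines, including COLO668, where it was bright and changed by 0.02.

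Of the guanylate-binding genes, GBP2 rose in NCI-H446, from 6.83 to 7.19 (median 7.00) to 7.10 to 7.50 (median 7.20), with overlap, by 0.26 ± 0.06 (adjusted p = 0.00127). With only that line's own arrays in the fit neither GBP2 (adjusted p = 0.315) nor OAS1 (adjusted p = 0.128) was called in NCI-H446. GBP1 passed nowhere on the probe set used; a different, dim one was called higher in NCI-H510 (0.18) and NCI-H526 (0.16; adjusted p = 0.0330 and 0.0497 over all probe sets).

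Of the other induced genes, IFI6, a mitochondrial survival protein, rose in NCI-H526 from 7.32 to 7.66 (median 7.54) to 8.03 to 8.35 (median 8.07), without overlap, by 0.65 ± 0.09 (adjusted p = 1.98e-08). It also rose in NCI-H146 (0.28 ± 0.09, adjusted p = 0.0489). EPSTI1 rose in COLO668, the line where it was high, from 8.26 to 8.96 (median 8.61) to 8.85 to 10.02 (median 9.17), by 0.66 ± 0.08 (adjusted p = 4.36e-09). It fell in NCI-H526 by 0.29 ± 0.08 (adjusted p = 0.00631), where its arms overlapped slightly. IFI44 rose from a dim level in COLO668 (0.53 ± 0.10, adjusted p = 2.82e-05), and IFI27, IFI35, IFI44L and XAF1 passed in no line.

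All treated arrays of a member lay above all its DMSO arrays for 9 members in NCI-H526 (5.01% of all genes), 6 in NCI-H510 (4.71%), 2 in SHP-77 (0.834%), 2 in COLO668 (2.51%), 2 in NCI-H146 (2.49%) and 0 in NCI-H446 (0.759%). All lay below only for USP18 in NCI-H526 (5.22%). The 9 in NCI-H526 were HERC5, PARP14, IFITM2, IFITM3, IFI6, SAMD9, DDX60, MX1 and MX2. In the 3 lines with 2 arrays per arm such separation was common for all genes (between 19.0% and 25.8% in a direction) and is not read further.

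A test of the difference itself asked whether the 6 time course lines shared 1 response. The day-averaged responses differed for 20 of 40 members (F test, adjusted p below 0.05; all genes 29.2%). The smallest adjusted p was that of IFITM3 (1.49e-13), with changes from -0.13 in NCI-H446 to 1.22 in NCI-H510, followed by IFITM2 (4.22e-11), EPSTI1 (1.14e-07), PARP14 (5.73e-07) and HERC5 (1.05e-06).

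With the line as the replicate at day 4, the day all 9 lines share, limma called 0 of the 40 members (all genes 0.0657%), and 6 had an unadjusted p below 0.05 (all genes 10.9%). The smallest was that of USP18, whose mean change was -0.26 ± 0.05 (SE over the lines; limma, adjusted p = 0.103), lower in 9 of 9 lines. Its values were -0.51 in NCI-H526, -0.46 in COLO668, -0.35 in H69, -0.29 in NCI-H446, -0.28 in H1417, -0.26 in SHP-77, -0.14 in H2171, -0.04 in NCI-H146 and -0.02 in NCI-H510. HERC5 averaged 0.38 ± 0.10 (adjusted p = 0.201) and was higher in 8 of 9 lines, and IFITM2 averaged 0.35 ± 0.11 (adjusted p = 0.264), also higher in 8 of 9. With arrays instead of lines as replicates, 7 members were called at day 4 (6 higher and 1 lower; all genes 9.8%), a test that speaks for these 9 lines alone.

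Time was examined in the 6 lines with 3 days. Under DMSO alone, 3 members were higher at day 7 than at day 2 in COLO668 (all genes 3.61%): DDX60 by 0.66 ± 0.16, IFITM3 by 0.63 ± 0.15 and EPSTI1 by 0.46 ± 0.14 (adjusted p = 0.00888, 0.00923 and 0.0499). In the other 5 lines limma called 0 (all genes 0.106% in NCI-H146, 0.228% in NCI-H446, 0.379% in NCI-H510, 0.0253% in NCI-H526 and 5.53% in SHP-77). An unadjusted p below 0.05 was held by 2, 4, 4, 3 and 6 members in that order (all genes 5.27%, 6.09%, 11.2%, 2.76% and 20.0%). These COLO668 calls rest on few arrays. DDX60 read 6.32 and 6.70 at day 2 and 6.73 and 7.62 at day 7, and it was at 0.22 (adjusted p = 0.761) without DMSO day 7 replicate 2 and at 0.47 (adjusted p = 0.325) without DMSO day 2 replicate 1. IFITM3 lost its call without any 1 of 3 arrays (0.55 to 0.66; adjusted p from 0.0592 to 0.0829). Without the 6 doubted arrays a single DMSO array was left at day 7 in COLO668, where DDX60 was at 1.11 and IFITM3 at 0.55. In NCI-H446 USP18 was then called lower (-0.59, all genes 1.14%).

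The response to 552A grew from day 2 to day 7 for 3 members in COLO668 (all genes 3.14%), IFI44 by 1.13 ± 0.24, IFITM2 by 0.75 ± 0.22 and IFITM3 by 0.74 ± 0.22 (adjusted p = 0.00234, 0.0463 and 0.0443). IFI44 read 5.66 and 5.87 with 552A at day 2, 6.02 and 5.95 at day 4, and 6.64 and 7.56 at day 7, while its DMSO arrays stayed between 5.61 and 6.19. In the same 5 lines limma called 0 (all genes 0.0354%, 0.167%, 0.126%, 0.415% and 0.0961% in that order). An unadjusted p below 0.05 was held by 3, 5, 1, 3 and 3 members (all genes 2.59%, 6.87%, 3.01%, 5.13% and 5.37%). Without the doubted arrays COLO668 kept a single DMSO array and a single treated array at day 7. There IFI44 was at 0.93, IFITM2 at 0.78 and IFITM3 at 0.68, and no call is read from so few arrays. In NCI-H446 IRF9 and EPSTI1 were called without the doubted arrays, by 0.57 and 0.77 (all genes 0.657%).

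**Figure D5:**
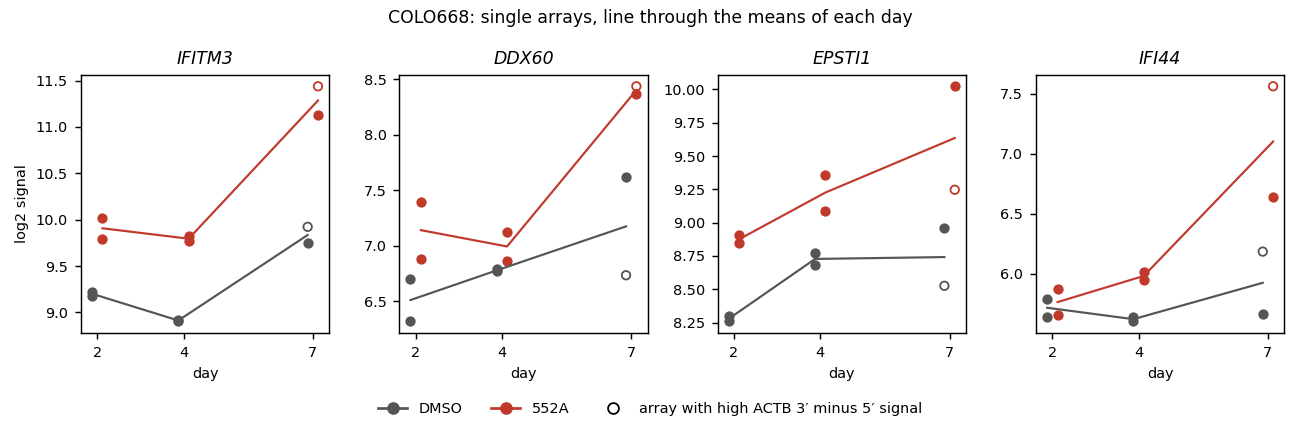
Log2 signal of IFITM3, DDX60, EPSTI1 and IFI44 on every COLO668 array by day, DMSO in grey and 552A in red, with lines through the mean of each day; open points are the 2 arrays with a high ACTB 3′ minus 5′ signal. The red points are above the grey points on every day for IFITM3, and the red IFI44 points leave the grey ones by day 7 (6.64 and 7.56).

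The number of called members was highest at day 7 in the lines with the most calls. Such counts are no test of growth, and the direct test above called 0 members in NCI-H526 and SHP-77. SHP-77 also had 4 treated arrays at day 7, more than any other group. NCI-H526 had 7 at day 2 (all genes 3.46%), 6 at day 4 (4.34%) and 14 at day 7 (8.77%). COLO668 had 3 at day 2 (1.74%), 3 at day 4 (3.03%) and 13 at day 7 (20.9%). SHP-77 had 0 at day 2 (0.283%), 0 at day 4 (0.379%) and 8 at day 7 (7.36%). Without the doubted arrays it had 1 at day 4 (IFITM3, all genes 1.04%). A single DMSO array was then left at day 7, so no count is given for that day. NCI-H510 had 2 at day 2 (2.5%), 2 at day 4 (3.49%) and 3 at day 7 (4.61%), all higher. NCI-H446 had 0 at day 2 (0.293%), 4 at day 4 (7.26%), of which PARP14, IRF7 and ISG20 fell and IRF1 rose, and 2 at day 7 (2.29%). Without the doubted arrays, 1 of which is a DMSO array of that day, the fall of PARP14 was no longer called (-0.61; adjusted p = 0.0553), and the counts in NCI-H446 were 1 at day 2 (OAS1; all genes 1.08%), 3 at day 4 (3.5%) and 4 at day 7 (5.04%), with IRF9 and IFI44 gained. NCI-H146 had 0 at day 2 (0.748%), 0 at day 4 (0.855%) and 1 at day 7 (1.95%). In COLO668 a single array per arm was left at day 7 without the doubted arrays, so no count is given for that day. At day 4, 5 members were called there without them (5.14%), with USP18 and HERC5 gained. The ACTB signal of the SHP-77 and COLO668 groups was also highest at day 7 (means from 0.54 to 1.01), and its part in these counts was not tested.

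The rest of the pathway was read from a list of 51 genes, of which 48 had a probe set. In NCI-H526 4 list genes rose and 4 fell, in COLO668 5 rose and 3 fell, and in NCI-H510 3 rose. In NCI-H446 2 rose, in SHP-77 1 rose and 1 fell, in H2171 2 rose and 1 fell, and NCI-H146, H69 and H1417 had 1 each, which rose. Of the 48, 8 were thus called in NCI-H526 (all genes 15.8%), 8 in COLO668 (15.9%) and 3 in NCI-H510 (11.3%). These shares were near that of all genes in NCI-H526 and COLO668 and below it in NCI-H510. The counts in the other lines are small, against 4.07% of all genes in NCI-H446, 5.84% in SHP-77 and 1.44% in H2171. The shares were 4.88% in NCI-H146, 3.2% in H69 and 6.98% in H1417.

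Of the ligands, IFNB1 and IFNA1, the founding type I interferons, had DMSO means between 5.68 and 6.02 and between 4.00 and 4.27, dim in all 9 lines, and were called nowhere. Of the receptors, IFNAR2 rose in COLO668 (0.43 ± 0.07) and NCI-H510 (0.27 ± 0.07), while IFNAR1 changed by between -0.27 and 0.04 and passed in 0 lines. IFNGR1, the binding chain for interferon gamma, rose in NCI-H510 (0.39 ± 0.05), SHP-77 (0.18), NCI-H446 (0.18) and COLO668 (0.17). In SHP-77 the call was lost with the mean of its probe sets (0.16; adjusted p = 0.158) and without DMSO day 2 replicate 2 (0.0554) or 552A day 2 replicate 1 (0.0607). IFNGR2 rose in H1417 by 0.26 (adjusted p = 0.0482), a call lost without any 1 of the line's arrays. IL10RB, shared by the interleukin-10 and interferon lambda receptors, fell in NCI-H526 (-0.57 ± 0.08) and COLO668 (-0.41 ± 0.08) and rose in H2171 (0.50) and NCI-H446 (0.26). The NCI-H446 call was lost with that line's own arrays alone (adjusted p = 0.542), under quantile normalization (0.0804) and without any 1 of 9 arrays (0.0514 to 0.271).

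Of the kinases and STAT genes, JAK1 rose by 0.18 and STAT3 by 0.30 in NCI-H526, and JAK2 and TYK2 passed in 0 lines. Of the sensors, STING1, the adaptor of DNA sensing, rose in COLO668 from 6.38 to 6.86 (median 6.596) to 6.63 to 8.02 (median 6.94), by 0.64 ± 0.09 (adjusted p = 3.74e-08), and passed in no other line. RIGI, a sensor of viral RNA, rose in H69 (0.45) and NCI-H510 (0.29) and fell in NCI-H526 (-0.24) and H2171 (-0.60). The H69 call was lost without any 1 of the line's arrays (adjusted p from 0.0672 to 0.209), and in H2171 the mean of its probe sets was -0.02 (adjusted p = 0.993), with the call also lost without DMSO replicate 2 (0.195) or 552A replicate 2 (0.350). TRIM25, the ligase that activates RIGI, rose in H2171 from 9.07 and 9.11 to 10.00 and 10.10, by 0.96 ± 0.10 (adjusted p = 8.50e-10), and by 0.25 in NCI-H146 and 0.17 in COLO668. The NCI-H146 call was lost with the line's own arrays (adjusted p = 0.0835) and without 552A day 2 replicate 2 (0.0513). IFI16, a nuclear DNA sensor, was dim in all lines and fell in SHP-77 (-0.19), a call lost without 552A day 4 replicate 2 (adjusted p = 0.0548). ADAR, which edits RNA duplexes, rose by 0.16 in COLO668, and MAVS, CGAS and EIF2AK2 passed in 0 lines.

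Of the negative regulators, SOCS1, which binds and blocks the JAK kinases, rose in NCI-H526. Its DMSO arrays lay between 7.71 and 8.26 (median 7.86) and its treated arrays between 8.28 and 8.83 (median 8.58), without overlap, with a change of 0.67 ± 0.11 (adjusted p = 2.49e-06). SOCS3 passed in 0 lines. NCI-H526, the line with the largest number of members called higher, also held the only called rise of SOCS1 beside its called fall of USP18. A link between these was not tested. The response of SOCS1 differed between the 6 time course lines (F test, adjusted p = 0.00366), as did those of 14 of the 48 pathway genes in all (29.2% of all genes).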

How the data were processed

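Each of the 88 HG-U133 Plus 2.0 arrays held RNA of 1 of 9 SCLC lines. The authors deposited 1 normalized log2 signal per probe set and array; the log2 scale was read from the values, while the program, background correction and normalization behind it are details not given in the sources used. Of 54675 probe sets, 41091 were annotated to 1 gene, 1801 to several and 11721 to none, and 62 were controls. Groups came from the sample titles, and 0 columns were left unmapped.

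A model with 42 means of line, treatment and day was fitted with limma 3.58.1 (R 4.3.3) to 1 probe set per gene, with no filter on dim probe sets. The spread was pooled over all groups, and p-values were adjusted by Benjamini-Hochberg over 19775 genes in each comparison and called below 0.05. Tests were two-sided. At day 4 the shared response used each line's mean change as 1 replicate. The scripts were tested on simulated data.

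The members and lists were chosen with earlier results of these data known. Members named by rule were, per line, the 2 in each direction with the largest called change that had 1 sign on every day, the 6 with the largest range of DMSO levels, the 3 with the smallest p of the shared response and, per line, the 2 largest called culture time changes. Of the pathway list, the fixed receptor, kinase, sensor and regulator genes and the largest called change in each direction per line were named, and others were named after their values were seen. Alternatives were quantile normalization, an intensity trend, filters, the mean of all probe sets, a replicate block, each line's own arrays and leaving out each array. Leaving out the 6 doubted arrays and testing every probe set were added after seeing the data. The number of arrays limits the precision.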

Additional observations from a re-analysis of the deposited data

Results flagged for a closer look

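For 10 of the members named for their response, the change under 552A differed between the 6 time course lines by the F test of the difference in limma, where 29.2% of all genes did. These members had been named for a large change in some line of the same arrays, so the number is no support for a property of the members. The adjusted p was 1.49e-13 for IFITM3, 4.22e-11 for IFITM2, 1.14e-07 for EPSTI1, 5.73e-07 for PARP14, 1.05e-06 for HERC5, 2.01e-04 for ISG15, 0.00113 for MX1, 0.00441 for OAS1, 0.00744 for GBP2 and 0.0147 for USP18. EPSTI1 and ISG15 were called in opposite directions in 2 lines each.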

How the results depend on the processing

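No result named by rule changed sign under the alternatives. Other members and single probe sets were not part of that check, and ISG20 in H69 went opposite ways on different probe sets. The counts in this section stand without the share of all genes called under the same setting. They show how stable the calls were, and not whether the members moved apart from other genes. With a stricter filter on dim probe sets, members called fell to 20 for DMSO levels over 9 lines, to 15 in COLO668 and 18 in NCI-H446 against the other lines, and under 552A to 12 for the difference between lines, 3 in NCI-H510, 6 in COLO668 and 0 in NCI-H446; fewer members were tested. With each line's own arrays the counts were 12 in NCI-H510, 0 in NCI-H446, 1 in H69 and 1 in H1417. H69 had 1 under quantile normalization and 1 under a milder filter. Without the 6 doubted arrays H69 had 3 and H1417 had 4. The growth of the response from day 2 to day 7 gave 1 with the mean of all probe sets. Arrays as replicates gave 7 for the shared response.

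Same-numbered arrays shared only a number: over 42 pairs the correlation of their deviations ran from -0.42 to 0.49, with 18 over 0.1. A replicate block moved NCI-H146 from 6 to 3, H69 from 0 to 1 and the growth of the response from 3 to 1, gave 44 calls over all lines, and ended the calls of ISG15 in NCI-H510 (adjusted p = 0.0607), IL10RB in NCI-H446 (0.0663) and IFNGR2 in H1417 (0.118).

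Leaving out each array in turn gave 42 to 53 calls over all lines and 61 to 81 over lines and days. By line the counts were 2 to 4 in SHP-77, 13 to 14 in NCI-H526, 5 to 8 in NCI-H510, 10 to 13 in COLO668, 2 to 6 in NCI-H146, 2 to 6 in NCI-H446, 0 to 1 in H69, 0 to 0 in H2171 and 0 to 1 in H1417. The shared response gave 0 to 0, the difference between lines 19 to 22, DMSO levels 33 to 37 and the sum of lines against the others 202 to 218. The culture time count ran from 0 to 8, being 0 without COLO668 DMSO day 2 replicate 1, 1 without COLO668 DMSO day 2 replicate 2 or day 7 replicate 2, 6 without NCI-H446 DMSO day 4 replicate 1 and 8 without NCI-H446 DMSO day 4 replicate 2 or SHP-77 DMSO day 7 replicate 2. The growth of the response ran from 1 to 5, being 1 without COLO668 DMSO day 2 replicate 1 or 2, DMSO day 7 replicate 2 or 552A day 2 replicate 1 and 5 without SHP-77 DMSO day 7 replicate 2. NCI-H446 gave 6 without DMSO day 4 replicate 1 and 5 without DMSO day 7 replicate 1, H69 gave 1 without DMSO replicate 2, and NCI-H146 gave 2 without DMSO day 2 replicate 1 or DMSO day 4 replicate 2 and 3 without any of 5 other arrays of the line. SHP-77 gave 2 without any of 9 of its 14 arrays. The cause of these moves was not tested. Dim members, among them DDX60 outside COLO668, may change by more than their signal shows.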

Other observations

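Some members gave different answers from different probe sets. IFIT3 was read from a probe set with DMSO means of 7.72 in NCI-H510, 8.01 in COLO668 and 7.84 in NCI-H146, where its changes under 552A were 0.09, 0.09 and 0.16 and were not called. Its second probe set, with DMSO means of 5.32, 5.87 and 5.66 in these lines, rose by 0.78 ± 0.13, 0.68 ± 0.13 and 0.65 ± 0.13 (limma over every probe set, adjusted p = 9.75e-06, 1.08e-04 and 6.55e-04). These are the 3 lines in which IFIT1 rose. GBP2 rose on both of its probe sets in NCI-H446, by 0.26 and 0.72, and EPSTI1 on both in COLO668, by 0.66 and 0.62. In H69, where no member was called, a second probe set of ISG20 fell by 0.77 ± 0.16 and an _x_at probe set of GBP1 fell by 0.83 ± 0.20 (adjusted p = 0.00204 and 0.00882). The ISG20 probe set used for the gene went the other way there, by 0.37, and was not called.

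With each of the 67 member probe sets as its own feature, 14 were called higher and 2 lower in NCI-H526 (12.7% of 41091 probe sets called), 14 and 1 in COLO668 (12.5%), 9 and 1 in NCI-H510 (9.2%), 5 and 0 in NCI-H146 (3.58%) and 5 and 0 in NCI-H446 (3.07%). SHP-77 had 2 and 0 (4.17%), H1417 3 and 0 (5.12%), H69 0 and 2 (2.34%) and H2171 0 and 0 (1.04%).

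A probe set annotated to both IFITM1 and IFITM2 was left out of the members. Its mean went from 7.02 ± 0.06 (SD, n = 6) under DMSO to 7.49 ± 0.30 (n = 6) with 552A in NCI-H510 and from 7.52 ± 0.28 (n = 6) to 7.87 ± 0.33 (n = 8) in SHP-77, with no test made. In NCI-H526, where IFITM2 rose, it was 7.33 and 7.32.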
